A study of Mus musculus and synthetic construct with 33 samples.

Results

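Wild-type (WT) liver was set against WT heart, hindlimb and lung in mouse embryos of age E14.5, to describe which genes the embryonic liver holds above or below the other organs. The comparison used the 14 WT organ libraries of the 33 libraries in the series, and all 26754 genes that could be joined over the 4 organ tables. Liver had 5 WT libraries (4 males and 1 female, 4 litters), and heart, hindlimb and lung had 3 each (2 males and 1 female in each organ, from 3, 2 and 2 litters). All 3 WT hearts and 2 of the 3 WT lungs came from embryos that also gave a WT liver library, whereas no WT hindlimb did. In all, the 14 libraries came from 9 embryos of 7 litters. Every embryo was of the Trp53cor1tm1.1Vlcg strain, which carries a targeted allele of the long noncoding RNA gene Trp53cor1 (formerly linc-p21), on a 129S6/C57BL/6 background given as N3 with no Neo. Groups followed the genotype labels WT and KO, and the embryos labelled KO (4 liver libraries and 3 of each other organ) served here only as a second set of embryos. All 27 organ libraries, WT and KO, came from 17 embryos of the same 7 litters. Organs were taken whole, so each value mixes all cell types of the organ, and fewer cells of a type cannot be told apart from less RNA per cell.

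Fetal liver is built by hepatoblasts, the shared precursors of hepatocytes and bile duct cells, which already secrete albumin, alpha-fetoprotein, clotting factors and apolipoproteins. At the same stage it is the main site of blood formation, where red cell precursors gather around macrophages and take up iron for haem. The first red cells of the embryo come from the yolk sac and circulate with embryonic globins, and the liver then makes definitive red cells with adult globins.

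Each table held 1 value per gene and genotype in FPKM (fragments per transcript length and sequencing depth), pooled by the authors over the libraries of a group. No spread between embryos accompanies these values, and no test was possible. A fixed rule of size took the place of a test. A gene was called liver-high when WT liver was at 1 FPKM or more and at least 4-fold over the highest of the other 3 organs, after 0.1 FPKM was added to each value. It was called liver-low when WT liver was at least 4-fold under the lowest of the other 3, all of them at 1 FPKM or more. The log2 ratios below are on this log2(FPKM + 0.1) scale, which understates the contrast of genes at low levels. The KO pools, which the rule did not use, gave a repeat in other embryos, in which genotype and embryo cannot be told apart. Trp53cor1 itself was at 0.852 FPKM in WT heart, 0.710 in WT hindlimb, 0.0351 in WT liver and 0.104 in WT lung, and at 0.00505 in KO lung and listed at 0 in the other KO pools.

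The tables had been scaled separately, so the shift between them was measured first. Over the 10952 genes at 1 FPKM or more in all 4 WT organs, the median log2 of liver over heart was -0.16, over hindlimb -0.25 and over lung -0.35. Liver values therefore sat slightly low over these genes, and a ratio of 0 in what follows is not exactly the middle of all genes. The size of the shift depended on the genes used. Over 7425 genes at 5 FPKM or more in all 4, the medians were -0.01, -0.10 and -0.23. Over 18822 genes above 0 in all 4, they were -0.35, -0.49 and -0.52. The same medians over a list of 32 housekeeping and ribosomal genes were 0.34, 0.34 and -0.06. Within an organ, the KO pool differed from the WT pool with an SD of log2 ratios of 0.18 in liver, 0.21 in heart, 0.22 in hindlimb and 0.24 in lung, over genes at 1 FPKM or more in both. In liver, 95% of genes moved by no more than 0.33 on the log2 scale between the 2 pools. The ratios to the highest other organ moved more, with 95% of liver-high genes within 1.08 of each other in the 2 sets of pools. The 4-fold limit is 2 on this scale.

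The markers of the organ label were present. Alb and Afp (hepatoblast products), Slc4a1 (the anion exchanger of the red cell membrane) and Gata1 (the main transcription factor of red cell precursors) were all highest in liver, as given below. Of the marker lists of other organs, 20 heart muscle genes summed to 25.2 FPKM in WT liver against 36874 in WT heart. The 16 lung epithelium genes summed to 97.7 FPKM in WT liver, with 5 at 1 FPKM or more, against 1051 in WT lung, 113 in heart and 106 in hindlimb. Of these, Sftpc and Nkx2-1 were at 0.0938 and 0.0151 FPKM in liver, while Napsa (1.17) and Abca3 (0.90) had log2 ratios above 0. A list of 22 pancreas, stomach and gut genes summed to 24.9 FPKM in WT liver and 80.3 in KO liver, as given below. Nor were the other 3 pools all free of foreign tissue markers. The same 20 heart muscle genes summed to 1090 FPKM in WT lung and 102 in KO lung, so the WT lung pool stood apart. The 4 albumin family genes summed to 16.3 FPKM in WT heart and 3.39 in KO heart, to 8.17 and 3.27 in WT and KO lung, and to 0.606 and 0.849 in WT and KO hindlimb. Each ratio takes the highest other organ, which was heart for 40, lung for 22 and hindlimb for 11 of the 73 liver-high genes of secreted hepatocyte proteins described below. The part of these foreign markers in the ratios was not tested.

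Of 15437 genes at 1 FPKM or more in any WT organ, 843 were liver-high, which is 5.46% of the genes counted. Their median log2 ratio was 3.59, against -0.77 for all genes counted. These genes made up 19% of the summed FPKM of WT liver, and 1.04% of heart, 0.753% of hindlimb and 1.46% of lung. By contrast, 1081 of 12052 genes at 1 FPKM or more in heart, hindlimb and lung were liver-low, 8.97% of those counted. Liver-high calls were 43.8% of all calls as deposited. They were 54.3% (948 high, 799 low) after the tables were centred on the median ratios of the 10952 genes above. The organ next to liver was heart for 305 liver-high genes, lung for 281 and hindlimb for 257, so none of the 3 alone set the list. Without the heart pool 950 genes were liver-high and 1744 liver-low, and without the lung pool 965 and 1413. Just inside the 4-fold limit lay Smox (log2 ratio 2.01) and E2f4 (2.01), and just outside it AB124611 and Micall2 (both 2.00 after rounding).

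The plot of log2 ratios by gene list shows the 2 programmes that stood above the other organs and the connective tissue and vessel genes that stood below them. Lists of genes for proteins secreted by hepatocytes had 73 of 81 counted members liver-high (90.1%, with a median of 7.32). Lists for red cells had 67 of 93 (72.0%, with a median of 2.85). Lists for other blood lineages had 41 of 75, and lists for hepatocyte metabolism 32 of 52. Lists for vessels, stellate cells and mesothelium had 3 of 55 liver-high (5.45%), near the 5.46% of all genes counted, with a median of -2.47 against -0.77 over all genes.

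**Figure D1:**
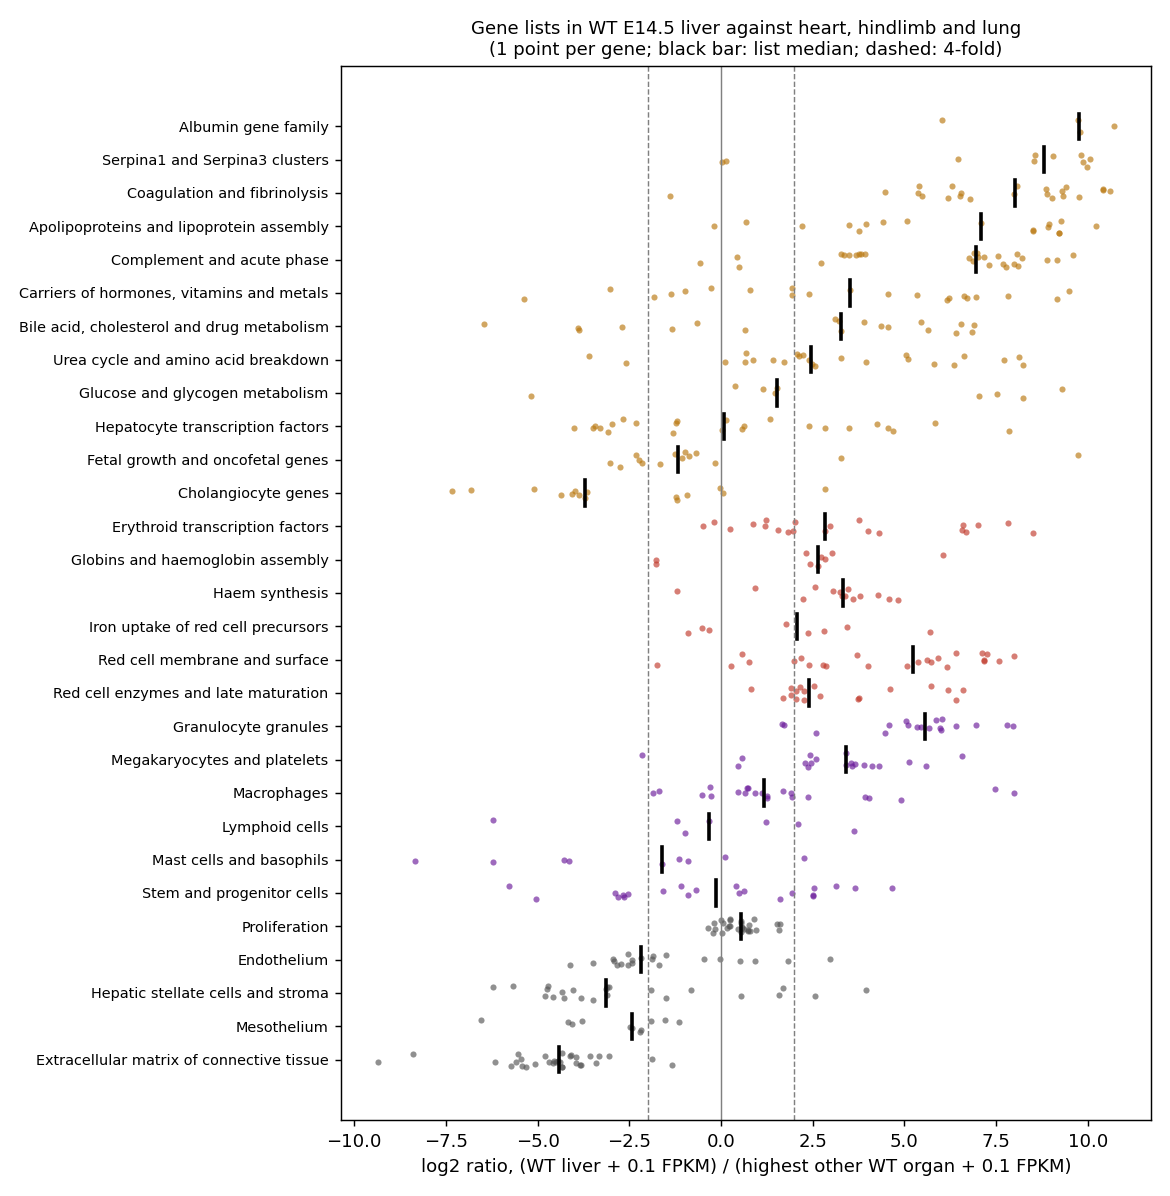
Log2 ratio of WT liver over the highest of WT heart, hindlimb and lung (horizontal axis, 0.1 FPKM added) for every counted member of 29 gene lists, with 1 point per gene, a black bar at the list median and dashed lines at 4-fold; brown marks hepatocyte and bile duct lists, red the red cell lists, purple other blood lists and grey the remaining lists. The albumin family sits farthest right with a median of 9.77, the red cell lists lie between 2.07 and 5.23, and connective tissue matrix farthest left at -4.41.

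The albumin gene family held the gene with the largest contrast among the liver-high genes, Alb. Alb, the main protein of plasma, was at 5.98 FPKM in heart, 0.538 in hindlimb, 3.85 in lung and 10195 in liver, a log2 ratio of 10.71. Afp, its fetal counterpart, was at 10.3, 0.0428, 4.00 and 8915 FPKM in the same order (log2 ratio 9.75). Within liver, Alb stood at 1.14 times Afp, and at 1.35 times in the KO pool. Gc, which encodes the vitamin D binding protein, was at 155 FPKM in liver and at most 0.0743 elsewhere (9.80). Afm, for afamin, a carrier of vitamin E, was the lowest of the 4 with 22.8 FPKM in liver and 0.251 in lung (6.02). All 4 were liver-high in the KO pools too, where the median of the family was 11.43 against 9.77 in WT. Alb, Afp and Afm lie next to each other on chromosome 5 of mm10 (chr5:90460889-90553543), and Gc lies on the same chromosome at chr5:89417511-89457898.

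The 250 bases before the RefSeq start of these 4 genes (GRCm38.p6, which is mm10) are shown because each holds the letters GTTAATNAT. The letters are in capitals, and the genes and the motif were picked after the sequences had been seen. The windows are chr5:90460620-90460869 (plus strand) for Alb, chr5:90490464-90490713 (plus) for Afp, chr5:90518699-90518948 (plus) for Afm and chr5:89457899-89458148 (minus) for Gc.
Alb: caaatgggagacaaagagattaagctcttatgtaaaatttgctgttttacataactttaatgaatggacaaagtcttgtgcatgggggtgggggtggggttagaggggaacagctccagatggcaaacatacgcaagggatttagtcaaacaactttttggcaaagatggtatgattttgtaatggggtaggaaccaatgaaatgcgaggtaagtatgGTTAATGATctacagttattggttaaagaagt
Afp: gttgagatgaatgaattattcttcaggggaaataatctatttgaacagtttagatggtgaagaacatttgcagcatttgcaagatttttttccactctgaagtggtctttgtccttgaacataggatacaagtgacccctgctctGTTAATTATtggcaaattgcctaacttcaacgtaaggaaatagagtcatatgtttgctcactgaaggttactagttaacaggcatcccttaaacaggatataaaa
Afm: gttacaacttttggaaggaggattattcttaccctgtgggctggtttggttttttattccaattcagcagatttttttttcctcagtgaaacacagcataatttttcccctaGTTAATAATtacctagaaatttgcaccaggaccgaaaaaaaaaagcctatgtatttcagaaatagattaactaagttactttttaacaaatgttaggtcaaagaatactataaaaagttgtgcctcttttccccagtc
Gc: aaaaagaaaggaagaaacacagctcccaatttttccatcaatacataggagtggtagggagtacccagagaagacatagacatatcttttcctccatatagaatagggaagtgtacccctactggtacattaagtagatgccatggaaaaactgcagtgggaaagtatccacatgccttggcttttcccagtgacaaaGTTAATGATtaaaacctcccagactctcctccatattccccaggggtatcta
The match began 32 bases before the start in Alb, 105 in Afp, 138 in Afm and 52 in Gc. Searched on both strands of the 250 bases, GTTAATNAT was in 53 of 10145 windows of counted genes (0.522%), in 24 of 556 windows of liver-high genes (4.32%) and in 8 of 56 windows of liver-high genes of the secreted lists (14.3%). A match of letters is not a binding site, and these shares describe the windows only.

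Clotting factors were nearly all liver-high. Of 22 counted members of the coagulation and fibrinolysis list, 21 were liver-high (median 8.03). Fgb, Fga and Fgg, which encode the 3 chains of fibrinogen and lie side by side (chr3:83007859-83049803), were at 531, 346 and 454 FPKM in liver. In the other organs they reached at most 0.243, 0.151 and 0.231 FPKM, which gave log2 ratios of 10.60, 10.43 and 10.42. Kng1 (kininogen) had 277 FPKM in liver and 0.220 in heart, and Plg (plasminogen) had 190 and 0.181. Vtn (vitronectin, 273 FPKM) and Serpinf2 (the plasmin inhibitor, 437 FPKM) had ratios of 9.31 and 9.30. Prothrombin (F2) was at 166 FPKM, while F9, the factor lacking in haemophilia B, was at 2.57 and F7 at 6.20, so the factors of 1 cascade differed widely in level. F9 had the lowest ratio of the liver-high members, 4.47. The exception was Pros1 (protein S) with 9.05 FPKM in liver, 23.6 in hindlimb and 24 in lung.

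Apolipoproteins, the proteins that carry lipids in plasma, had 15 of 17 counted members liver-high (median 7.09). Apoa1 was at 1.56 FPKM in heart, 0.169 in hindlimb, 1.06 in lung and 1998 in liver (log2 ratio 10.23). Apoa2 reached 2379 FPKM in liver (9.23) and Apom 379 (9.27). Apoe, which macrophages and many other cells also make, was at 1492 FPKM in liver but at 325 in heart, 169 in hindlimb and 244 in lung, a ratio of 2.20. Scarb1 (the HDL receptor, 0.67) was among the members that did not pass.

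Protease inhibitors of the Serpina cluster on chromosome 12 (chr12:103616675-103989957) gave 8 liver-high genes of 10 counted. Serpina6, which encodes the corticosteroid carrier, led them with 1267 FPKM in liver, 1.30 in heart and 0.564 in lung, and was listed at 0 in hindlimb. Serpina1b, Serpina1a and Serpina1e, copies of the alpha-1 antitrypsin gene, were at 609, 222 and 171 FPKM. These copies are nearly identical, so reads can be split between them and their separate values are uncertain. Serpina3g and Serpina3n, at 1.39 and 1.41 FPKM, were near level with the other organs (0.13 and 0.03).

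The complement and acute phase list had 25 of 28 members liver-high (median 6.94). Ambp (alpha-1-microglobulin, 694 FPKM), Ahsg (fetuin-A, 1105 FPKM) and Hpx (the haem carrier hemopexin, 213 FPKM) led it with ratios of 9.61, 9.17 and 8.88. C3, the central component of complement, was at 171 FPKM in liver and 0.811 in heart (7.55), and Hc, which encodes component C5, at 51.8 FPKM (6.78). Acute phase genes ranged widely. Apcs (serum amyloid P) was at 25.5 FPKM in liver and listed at 0 elsewhere, and Saa4 at 15.5 (7.00). Saa1 was at 0.0756 FPKM, Orm1 at 0.111 and Saa2 was listed at 0 in liver. Haptoglobin (Hp) had 37.0 FPKM in liver and 3.72 in lung (3.28). At the lower end of the counted members stood Serping1, an inhibitor of complement, at 36.7 FPKM in liver (0.45).

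Carriers of hormones, vitamins and metals were mixed, with 12 of 21 counted members liver-high (median 3.51). Ttr, the carrier of thyroid hormone and retinol, was at 0.948 FPKM in heart, 0.0439 in hindlimb, 0.405 in lung and 753 in liver (9.49). Trf (transferrin, the iron carrier of plasma) was at 2104 FPKM in liver and at most 9.17 elsewhere (7.83). The metal-binding metallothioneins Mt1 and Mt2 were at 2427 and 2620 FPKM in liver, with 102 and 20.1 in heart. Hamp, the iron hormone hepcidin, was at 11.2 FPKM and Igfbp1 at 103. The members of the insulin-like growth factor axis did not follow Igfbp1. Igf1 (-3.04) and Igfbp2 (-5.36) were the lowest members, with 10.3 and 3.31 FPKM in liver against 85.0 and 140 in hindlimb.

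Genes of fetal growth were mostly not higher in liver. Of 14 counted, Afp and Lin28b (an RNA-binding protein of fetal progenitors, 11.6 FPKM, 3.26) were liver-high. The median of the list was -1.17. Igf2 was at 825 FPKM in liver against 1641 in heart, 1600 in hindlimb and 436 in lung, and H19 at 3666 against 5861, 4611 and 1906. Both imprinted neighbours were lowest in lung and second lowest in liver. Dlk1, often used as a surface marker of hepatoblasts, was at 713 FPKM in liver and 791 in hindlimb (-0.15), so it did not set liver apart here. Mest (-3.03) and Cdkn1c (-2.76) were the lowest.

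Metabolic genes known from the adult hepatocyte differed widely in RNA level, and enzyme activity was not measured. Of 24 counted genes of the urea cycle and amino acid breakdown, 16 were liver-high. Bhmt (betaine-homocysteine methyltransferase, 38.7 FPKM, 8.24) and Otc (the urea cycle enzyme ornithine transcarbamylase, 34.9 FPKM, 8.13) led the list. Of the other urea cycle enzymes, Ass1 was at 55.7 FPKM (2.41), Asl at 40.0 (1.71) and Arg1 at 11.5 (2.12). Cps1, which catalyses the entry step of the cycle, was at only 1.77 FPKM, against 1.10 in lung (0.64). Tat (tyrosine aminotransferase, 0.285 FPKM) and Tdo2 (tryptophan dioxygenase, 0.0937 FPKM in liver and 2.23 in lung) were low as well, and Got1 was higher in heart (-2.59).

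Among 9 counted genes of glucose handling, 4 were liver-high. Among them were Gys2 (liver glycogen synthase, 43.4 FPKM, 8.23), Pklr (pyruvate kinase of liver and red cells, 185 FPKM, 7.52) and Slc2a2 (the glucose transporter GLUT2, 21.2 FPKM, 7.03). Enzymes of glucose release and glycogen breakdown ranged widely in the same organ. G6pc was at 0.00477 FPKM, Pck1 at 0.359 and Pygl at 47.7 (1.15). Ppp1r3c had the lowest ratio (-5.19) and Slc37a4, the glucose-6-phosphate transporter, was near level (0.38).

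Of 19 counted genes of bile acid, cholesterol and drug metabolism, 12 were liver-high (median 3.27). Cyp2d10 (11.8 FPKM, listed at 0 in the other 3 organs), Abcb4 (the phospholipid pump of bile, 29.0 FPKM) and Abcc2 (a bile export pump, 12.7 FPKM) led it. Cyp3a16, the fetal member of the 3A drug-metabolizing enzymes, was at 9.26 FPKM and its adult relative Cyp3a11 at 2.27. Cyp7a1, the rate-limiting enzyme of bile acid synthesis, was at 0.361 FPKM, Cyp8b1 at 0.592 and Cyp2e1 at 0.139. Adh1 (alcohol dehydrogenase) and Aldh1a1 were the lowest, at 4.28 and 1.05 FPKM in liver and 388 and 16.9 in lung.

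Transcription factors of hepatocytes were mixed. Of 24 counted, 8 were liver-high, against 5.46% of all genes counted, and 1 of the 6 that could be liver-low was. The median was 0.09, which turned to -0.09 when values were divided by the sum without globin genes, and was 2.48 against the median of the other organs. Hnf4a, a central regulator of hepatocyte genes, was at 0.0651 FPKM in heart, 0.0182 in hindlimb, 0.0542 in lung and 38.2 in liver (7.86). Nr1i2 (the drug-sensing receptor PXR, 6.47 FPKM, 5.83) and Creb3l3 (19.3 FPKM, 4.69) followed, and Foxa3 (15.5 FPKM), Onecut1 (1.25), Onecut2 (1.65) and the bile acid receptor Nr1h4 (4.13) also passed. Foxa2 was at 3.70 FPKM in liver and 18.9 in lung, and Gata4 at 10.3 in liver and 116 in heart; both factors are also known for roles in those organs. Cebpa stood at 18.0 FPKM in liver and 16.3 in hindlimb (0.14), and Xbp1 was level in all 4 (0.03). Nr0b2 (-4.0) and Gata4 (-3.48) were the lowest.

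Bile duct genes were low. Of 15 counted members of that list, Onecut1 was liver-high, with a median of -3.71. Of the 9 that could be liver-low, 4 were, and 3 of these were so in the KO pools too. Epcam (0.393 FPKM in liver, 79.1 in lung, -7.33) was lowest, and Sox9, the early regulator of bile duct cells, was at 0.277 FPKM. Krt8 and Krt18, keratins that hepatocytes share with other simple epithelia, were at 73.6 and 64.9 FPKM in liver and level with lung (-0.03 and 0.07).

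The plot of levels by organ sets the main hepatocyte genes beside blood, vessel and stroma genes in WT and KO pools.

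**Figure D2:**
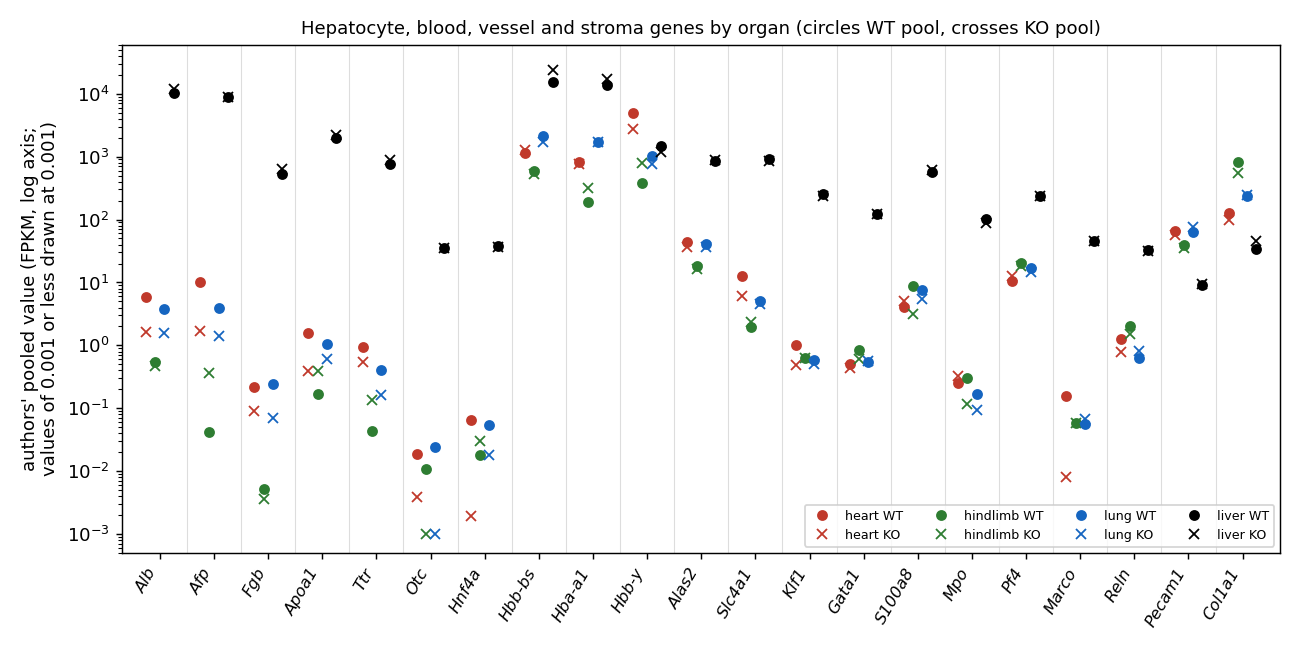
Authors' pooled FPKM (vertical log axis) of 21 genes in heart, hindlimb, lung and liver, with circles for WT pools and crosses for KO pools. Liver lies on top for every gene from Alb to Reln apart from Hbb-y, where heart leads (5004 against 1471 FPKM in WT), and below the other organs for Pecam1 and Col1a1.

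Regulators of red cells are described first. Of 21 counted erythroid transcription factors, 12 were liver-high (median 2.83). Gata1 was at 0.513 FPKM in heart, 0.860 in hindlimb, 0.540 in lung and 125 in liver (log2 ratio 7.02). Klf1, which drives the adult beta globin genes, was at 254 FPKM in liver and at most 1.01 elsewhere (7.83), and Hemgn, an erythroid nuclear protein, at 373 and 0.926 (8.50). Gfi1b (42.6 FPKM, 6.59), Nfe2 (175, 6.56) and Tal1 (111, 4.01) passed as well. Their partner Ldb1 was level, with 106 FPKM in liver, 121 in lung and 85.7 in heart (-0.19), and Bach1, a haem-sensing repressor, was the lowest (-0.49). The other members below 4-fold included Zfpm1 (FOG-1, a partner of GATA1), just short of it at 1.96, and Bcl11a, a repressor of embryonic globins, at 0.24.

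Globins held the highest values of any liver-high gene but not the largest ratios. Hbb-bs was at 1159 FPKM in heart, 599 in hindlimb, 2140 in lung and 15423 in liver (2.85), and Hba-a1 at 820, 190, 1680 and 13749 (3.03). Hbb-bt and Hba-a2, at 5982 and 5730 FPKM in liver, had ratios of 2.73 and 2.33. Reads of these paired copies can be split between them, so sums are safer than single values. The theta-like genes Hbq1b (60.03 FPKM, 6.06) and Hbq1a (3.99 FPKM, 2.65) were liver-high at low levels. Hbb-bh1, an embryonic beta-type gene, was at 54.4 FPKM in heart, 3.34 in hindlimb, 9.77 in lung and 291 in liver (2.42). The other 2 embryonic genes went the opposite way. Hbb-y was at 5004 FPKM in heart, 385 in hindlimb, 1026 in lung and 1471 in liver (-1.77). Hba-x was at 356, 28.3, 62.2 and 104 FPKM in the same order (-1.78). Hbb-bh2 was below 1 FPKM in every organ. In the KO pools heart again stood above liver for Hbb-y and Hba-x, with ratios of -1.23 and -1.33.

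Ratios within a table do not depend on how tables were scaled, so the balance of globins was also read inside each organ. Embryonic beta-type genes (Hbb-y and Hbb-bh1) made up 75.1% of beta-type FPKM in WT heart, 30.5% in hindlimb, 25.4% in lung and 7.61% in liver. Liver was lowest, as it was in the KO pools, where the shares were 61.9%, 49.8%, 25.1% and 4.1%. Hba-x made up 22.9% of alpha-type FPKM in WT heart and 0.530% in WT liver. The 2 embryonic beta-type genes were themselves in another balance, with Hbb-y at 92.0 times Hbb-bh1 in heart, 115 times in hindlimb, 105 times in lung and 5.06 times in liver. Liver of the KO pool gave 5.06 times as well. Within each organ, Slc4a1 also stood in another proportion to adult beta globin, at 4.28 FPKM per 100 in liver, 0.747 in heart, 0.218 in hindlimb and 0.168 in lung of WT embryos. Alas2 stood at 4.0, 2.60, 2.05 and 1.34 in the same order. In the KO pools Slc4a1 stood at 2.60 in liver, 0.358 in heart, 0.299 in hindlimb and 0.194 in lung, and Alas2 at 2.63, 2.14, 2.01 and 1.58. Liver was highest in both sets, by less in the KO pools for Alas2. Between the pools the embryonic beta-type share moved by over 1.5 times in hindlimb and in liver. Hindlimb had the lowest globin level of the 4 organs, with 0.287% of summed FPKM from globins against 6.17% in liver.

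**Figure D3:**
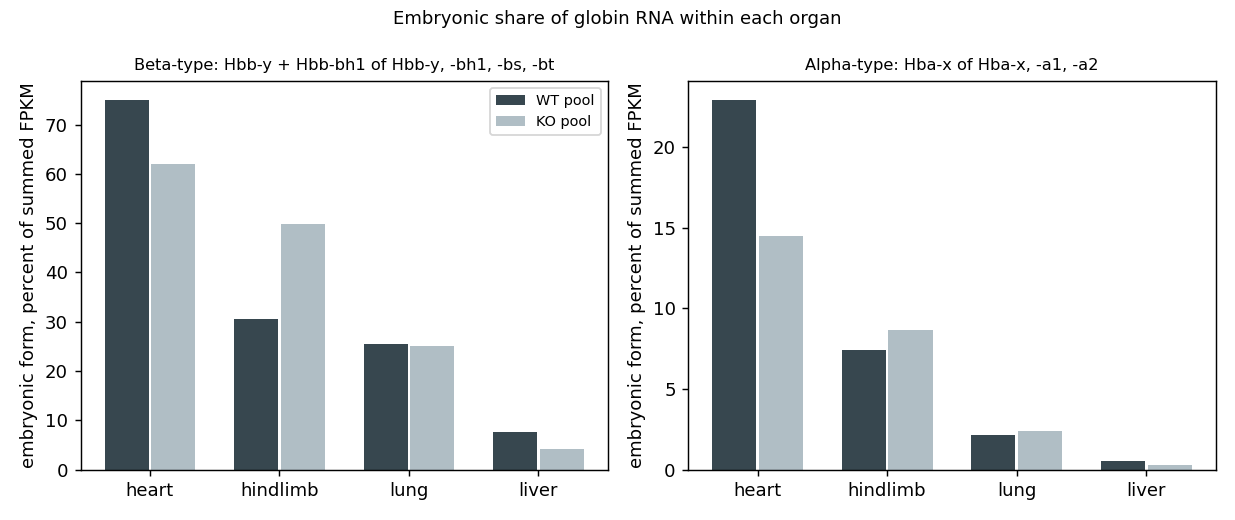
Embryonic forms as a percent of the summed FPKM of beta-type (left) and alpha-type globin genes (right) within each organ, with dark bars for WT and light bars for KO pools; there is 1 pooled value per bar and no error bar. Liver has the lowest share in both panels (7.61% and 0.530% in WT) and heart the highest (75.1% and 22.9%).

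Genes of haem synthesis were liver-high as a nearly complete pathway, 12 of 14 counted (median 3.34). Alas2, which encodes the red cell form of the first enzyme, was at 43.8 FPKM in heart, 18.2 in hindlimb, 40.8 in lung and 856 in liver (4.29). Cpox (388 FPKM) had the largest ratio (4.83), and Urod, Alad, Fech and Uros were at 659, 353, 343 and 179 FPKM. The 2 that did not pass were Alas1, the form of the first enzyme used by other tissues (16.4 FPKM in liver, 38.1 in heart, -1.21), and the mitochondrial carrier Slc25a39 (0.94). Of the 2 forms of the first enzyme, liver thus held more of one and less of the other than heart. The housekeeping list, of 32 genes, had 2 liver-high members, among them Tfrc.

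The iron uptake list followed, with 4 of 8 members liver-high. These included Hmox1 (2.37), which is also in the macrophage list, while Slc11a2 fell short (1.77). Slc25a37 (mitoferrin-1, which brings iron into mitochondria) was at 604 FPKM in liver and at most 11.5 elsewhere (5.70). Tfrc, the transferrin receptor, was at 495 and 45.9 (3.43), and Steap3, an iron reductase, at 57.3 and 8.13 (2.80). The iron regulators Aco1 and Ireb2 were lowest (-0.50 and -0.89). Transferrin and its receptor, ligand and receptor of 1 uptake route made by different cell types, were therefore both liver-high.

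Proteins of the red cell membrane and surface had 19 of 24 counted members liver-high (median 5.23). Rhag (171 FPKM, 7.99), Icam4 (120, 7.58) and Rhd (363, 7.26) had the largest ratios. Slc4a1 was at 12.6 FPKM in heart, 1.93 in hindlimb, 5.09 in lung and 916 in liver (6.18). Epor, the erythropoietin receptor, was at 99.4 FPKM and at most 1.76 elsewhere (5.74). Tmod1, a cap of actin filaments that heart muscle also uses, was higher in heart (104 against 31.0 FPKM, -1.74), and Add1 was level (0.27). Among 18 counted genes of red cell enzymes and late maturation, 14 were liver-high, led by Gfi1b, Car1 (carbonic anhydrase, 22.6 FPKM, 6.40) and Tspo2 (166 FPKM, 6.18). Car2 (1590 FPKM), Gpx1 (2594 FPKM) and Prdx2 (1720 FPKM) were the most abundant of these, and Cat (1.69) and Bnip3l (0.82) had the lowest ratios.

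Upstream windows of 3 red cell genes are shown because they hold the letters AGATAA, the core bound by GATA factors, on either strand (TTATCT on the other strand). Hbb-bs also holds CCACACCC, the letters bound by KLF1, and all matches of these motifs in the 3 windows are in capitals. They are RefSeq windows of GRCm38.p6 at chr9:21963577-21963826 (minus strand) for Epor, chrX:150547167-150547416 (plus) for Alas2 and chr7:103827929-103828178 (minus) for Hbb-bs, picked after the sequences had been seen.
Epor: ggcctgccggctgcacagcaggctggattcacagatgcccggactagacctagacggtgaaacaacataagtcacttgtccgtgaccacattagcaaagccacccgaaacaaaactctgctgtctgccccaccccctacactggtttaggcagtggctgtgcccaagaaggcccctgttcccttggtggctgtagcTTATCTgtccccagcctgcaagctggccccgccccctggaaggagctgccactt
Alas2: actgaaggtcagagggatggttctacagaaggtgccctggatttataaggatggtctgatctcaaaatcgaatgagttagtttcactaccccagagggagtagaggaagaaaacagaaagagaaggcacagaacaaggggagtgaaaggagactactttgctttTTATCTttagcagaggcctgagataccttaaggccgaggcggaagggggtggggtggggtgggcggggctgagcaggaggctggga
Hbb-bs: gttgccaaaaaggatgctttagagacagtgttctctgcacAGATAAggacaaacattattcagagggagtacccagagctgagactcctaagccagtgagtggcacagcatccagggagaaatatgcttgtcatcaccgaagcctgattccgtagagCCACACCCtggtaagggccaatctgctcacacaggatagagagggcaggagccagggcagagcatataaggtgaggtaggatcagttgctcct
AGATAA, searched on both strands, was in 592 of 10145 windows of counted genes (5.84%) and in 81 of 556 of liver-high genes (14.6%). It was in 8 of 33 windows (24.2%) of liver-high genes of the erythroid factor, globin, haem synthesis and red cell membrane lists. The iron uptake and red cell enzyme lists were not part of these 33. CCACACCC was in 3.51% of all windows, 5.04% of those of liver-high genes and 1 of the same 33, which was Hbb-bs itself. Epor, Alas2 and Hbb-bs, shown because they hold AGATAA, are among the 81 and the 8 windows with those letters. The shares of liver-high and red cell genes are thus partly set by that choice. In Hbb-bs the CCACACCC match began 93 bases before the start.

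Other blood lineages were present in liver as well. Granule genes of neutrophils and other granulocytes had 16 of 18 counted members liver-high (median 5.56). Mpo (myeloperoxidase) was at 0.251 FPKM in heart, 0.304 in hindlimb, 0.167 in lung and 102 in liver (7.97), and Elane (neutrophil elastase) at 0.0454, 0.123, 0 and 49.4 (7.80). S100a8 and S100a9, the calprotectin subunits, were the most abundant, at 566 and 522 FPKM. Ctsg (42.4 FPKM, 6.97) was close behind, and Epx (1.72) and Lyz2 (1.67) were the 2 below 4-fold. RNAs for proteins of early granules (Mpo, Elane, Prtn3 at 108 FPKM) and of late granules (Ltf at 13.9, Ngp at 43.7, Camp at 86.1) were thus both found.

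Of 19 counted megakaryocyte and platelet genes, 16 were liver-high (median 3.42). Besides Nfe2, Ppbp (168 FPKM, 5.60) and F2rl2 (10.4 FPKM, 5.14) led, and Pf4 was at 10.5 FPKM in heart, 20.1 in hindlimb, 16.7 in lung and 240 in liver (3.57). Gp9 and Itga2b, parts of platelet receptors, were at 28.3 and 29.1 FPKM. Thbs1 (-2.16) and Vwf (0.47), which vessels and stroma also make, had the lowest ratios. Thrombopoietin (Thpo), the growth factor of this lineage and a hepatocyte product, was at 3.44 FPKM in liver and was liver-high (2.56).

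Of 22 counted macrophage genes, 6 were liver-high (median 1.18). Cd5l (62.2 FPKM, 8.00), Marco (45.2 FPKM, 7.47), Timd4 (7.23 FPKM, 4.92), Spic (6.83 FPKM) and Clec4f (3.47 FPKM), genes known from resident macrophages, were liver-high, as was Hmox1 (117 FPKM). Others known from such macrophages did not pass, among them the iron exporter Slc40a1 (1.93), Nr1h3 (0.75), Dnase2a (0.71) and Vcam1 (-0.30). Of general macrophage genes, Csf1r was at 8.69 FPKM in heart, 13.4 in hindlimb, 10.3 in lung and 18.5 in liver (0.47), Emr1, which encodes F4/80, had a ratio of 1.70 and C1qa of 0.92. Cx3cr1 (-1.68) and Maf (-1.86) were lowest. Mast cell and basophil genes had 1 liver-high member of 9, the basophil protease Mcpt8 (7.38 FPKM, 2.26), whereas Cma1 and Tpsb2 were at 74.7 and 25.2 FPKM in hindlimb and at 0.131 and 0.240 in liver. Lymphoid genes were sparse. Igll1 and Vpreb1, the surrogate light chain of early B cells, were liver-high at 2.05 and 1.65 FPKM (3.62 and 2.10), Cd79b was at 4.46 FPKM (1.22), Rag1 was at 0.409 and Cd3e was listed at 0.

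Stem and progenitor genes gave 6 liver-high of 22 and a median of -0.14, which changed sign when tables were centred (0.18). Cebpe (3.93 FPKM, 4.68) and Slamf1 (3.08 FPKM, 3.15) were among the highest. Mecom (-5.03), Cd34 (-2.63) and Erg (-2.52), which blood stem cells share with endothelium, were lower in liver than in heart and lung, and Hoxa9 was lowest (-5.78), at 36.6 FPKM in hindlimb. Kit was at 8.71 FPKM in liver and 14.0 in lung (-0.68). None of 28 proliferation genes was liver-high, although 23 had a ratio above 0. Mki67 was at 45.2 FPKM in heart, 55.0 in hindlimb, 86.9 in lung and 264 in liver (1.60), Rrm2 was at 296 FPKM in liver (1.59) and Cdc6 at 52.9 (1.52). Bub1b (-0.36) and Bub1 (-0.21) were lowest, and the list median was 0.54, or 0.86 with the tables centred.

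Cells that frame the liver were less visible in whole-organ RNA. Endothelial genes had 1 of 21 liver-high, Oit3 (19.8 FPKM, 2.97), a share near the 5.46% of all genes counted. Their median was -2.19, against -0.77 over all genes counted. Of the 16 that could be liver-low, 2 were, and 1 of these was so in the KO pools too. Pecam1 was at 64.7 FPKM in heart, 39.3 in hindlimb, 63.0 in lung and 9.05 in liver (-2.82), and Emcn was lowest (-4.11). Genes known from sinusoidal endothelium, the leaky vessels of the liver, ranged widely. Stab2 was at 11 FPKM in liver and 3.04 in lung (1.82), Fcgr2b at 4.95 (0.93) and Lyve1 at 28.1 against 28.3 in lung (-0.01), while Stab1 (-0.46), Maf (-1.86) and Gata4 (-3.48) were lower in liver. Stellate cell and stroma genes had 2 of 23 liver-high, Reln (33.3 FPKM, 3.97) and Thpo, with Lhx2 next (3.76 FPKM, 1.70). Of the 18 that could be liver-low, 9 were, against 8.97% of all genes counted, and 6 of these 9 were so in the KO pools too. Des (-6.22) and Acta2 (-5.66), which muscle also uses, were lowest. Mesothelial genes had none of 11 liver-high, and 3 of the 5 that could be were liver-low, of which only 1 was so in the KO pools too. Podxl (-1.14), Muc16 (-1.53) and Gpm6a (-1.89) came nearest to the other organs, and Aldh1a2 (-4.16) and Tbx18 (-6.53) were farthest.

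Connective tissue matrix was low in liver. Of 32 listed genes, none was liver-high, 18 were liver-low, and all had a ratio below 0 (median -4.41, or -4.14 centred). In the KO pools 13 of the 18 were liver-low as well. Col1a1 was at 127 FPKM in heart, 817 in hindlimb, 238 in lung and 33.8 in liver, and Col3a1 at 277, 1238, 451 and 61.5. Fn1 (-1.34) and Col14a1 (-1.88) were nearest to the other organs, and Col2a1, the collagen of cartilage, was farthest (0.208 FPKM, -9.35). Of the 10 lowest liver-low genes with at least 10 FPKM in every other organ, 6 belong to striated muscle. Smpx (0.199 FPKM in liver), Myl4 (2.33), Csrp3 (0.355), Tnnt2 (1.68), Sln (0.315) and Actc1 (3.70) had log2 ratios to the lowest other organ from -6.47 to -5.48. These 6 were high in the WT lung pool, where Tnnt2 was at 108 FPKM and Sln at 19.5, against 4.58 and 0.134 in KO lung. In the KO pools Smpx (-4.57) and Actc1 (-2.65) were still past 4-fold, Csrp3 (-1.10), Myl4 (-0.65) and Tnnt2 (-0.37) were not, and the ratio of Sln turned to 1.02. The other 4 were not muscle genes. Irx2, a patterning factor, was at 10.9 FPKM in heart, 43.8 in hindlimb, 30.3 in lung and 0.0418 in liver (-6.28), Prnd at 0.111 FPKM in liver (-5.85), Lama4 (a laminin of vessel basement membrane) at 0.865 (-5.37) and Mgp (the calcification inhibitor matrix Gla protein) at 3.21 (-5.27). Just inside the limit were Ston1 and Gli2 (both -2.0 after rounding), and just outside it Lamb2 and Snai1 (also -2.0).

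The levels of liver-high genes outside the liver are given here as a description, since the rule chose the genes on these values. Over 66 secreted hepatocyte genes that were liver-high at 10 FPKM or more, the median level was 0.135% of liver in WT heart, 0.0908% in lung and 0.0172% in hindlimb, where 19 were listed at 0. Over 31 red cell regulators and membrane genes it was 1.63%, 1.0% and 0.912%, and over 12 haem synthesis genes 7.88%, 7.16% and 6.64%. Members at higher levels elsewhere were left out by the rule in each set. In the KO pools the secreted genes were at 0.0504% in heart, 0.0541% in lung and 0.0240% in hindlimb, while haem synthesis genes were at 7.78%, 6.98% and 7.03%. The red cell regulators and membrane genes were at 0.956%, 0.901% and 0.716% there. The part of liver RNA in the other organs was not tested.

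**Figure D4:**
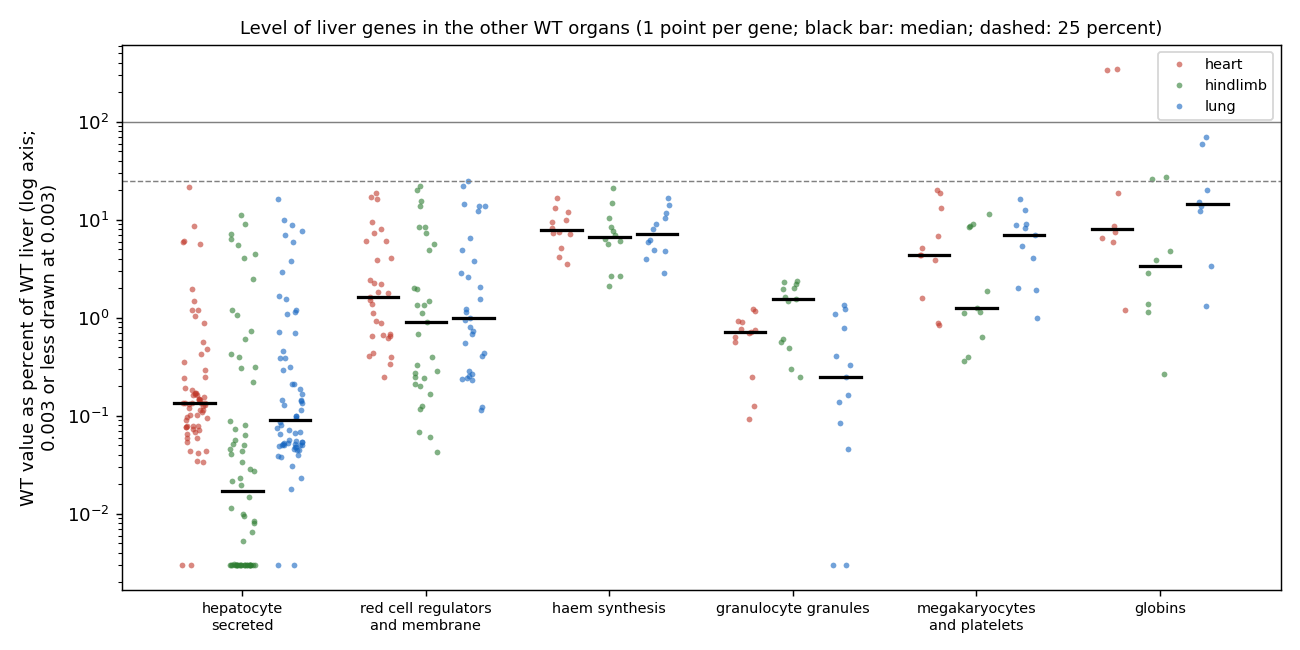
Level of liver genes in WT heart, hindlimb and lung as a percent of WT liver (vertical log axis), with 1 point per gene at 10 FPKM or more in liver and black bars at the medians; all sets except globins hold liver-high genes only and so lie below about 25%. Secreted hepatocyte genes sit near 0.135% in heart and 0.0172% in hindlimb, haem synthesis genes between 6.64% and 7.88%, and 2 embryonic globin genes stand above 100% in heart.

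Of the 843 liver-high genes, 600 were in none of the lists. Those with the largest ratios were Fabp1 (liver fatty acid binding protein, 271 FPKM, 9.98), Spp2 (a plasma phosphoprotein of the bone matrix, 165 FPKM, 9.65) and Spink3 (a trypsin inhibitor, 113 FPKM, 9.16). Of 7 counted genes of a pancreas, stomach and gut list, 4 were liver-high, against 5.46% of all genes counted. They were Fabp2 (7.06), Ctrb1 (3.56), Clps (3.17) and Cela1 (2.28), and all 4 were liver-high in the KO pools too. Fabp2, a fatty acid binding protein best known from gut, was at 13.3 FPKM in liver and listed at 0 elsewhere, and Cela1 was at 5.84 in liver. Of the defining pancreas genes, Ctrb1 was at 1.39 FPKM in WT liver and 24.7 in KO liver, Cpa1 at 1.26 and 9.59, and Pdx1 at 0.0194 in WT liver. The whole list of 22 pancreas, stomach and gut genes had 5 members at 1 FPKM or more and 8 listed at 0 in WT liver, against 9 and 1 in KO liver, and summed to 24.9 FPKM in WT liver and 80.3 in KO liver, and to between 5.51 and 10.9 in the other WT organs. By gene type, 796 liver-high genes were protein coding, 20 antisense and 17 lincRNA. The lincRNA Redrum, an erythroid RNA, was at 54.0 FPKM in liver and at most 0.283 elsewhere (7.14), and AI662270 at 151 and 3.14 (5.55). How strand was used in counting is not stated in the labels, so antisense genes cannot be told apart from reads of their partner strand, and none is given here.

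Liver-high genes lay beside each other in the genome. Of the 843, 288 (34.2%) had a liver-high gene as the next counted gene on either side, against 1305 of 14582 other counted genes (8.95%). There were 30 runs of 3 or more, with 112 genes. The longest were 9 genes of the Serpina cluster and 9 genes around the stefins on chromosome 16 (chr16:36156811-36408363), of which Stfa1, a protease inhibitor of granulocytes, was at 341 FPKM in liver and 9.42 in hindlimb. Others were 6 genes at Ugt2b and Sult1 on chromosome 5, Ahsg, Fetub, Kng2 and Kng1 on chromosome 16, and Apoc2, Apoc4, Apoc1 and Apoe on chromosome 7. Many of these runs hold copies of 1 gene family, so reads shared between copies can add to a run.

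In the list of the 20 most abundant genes of WT liver, 6 were liver-high and the rest were mitochondrial, ribosomal or growth-related RNAs. The 6 were Hbb-bs, Hba-a1, Alb, Afp, Hbb-bt and Hba-a2. Among the others were mt-Atp8 (10600 FPKM), mt-Co2 (9758), mt-Co1 (9749) and Eef1a1 (5858), with log2 ratios between -0.39 and -0.20, and the ribosomal genes Rplp1 (4811 FPKM, 0.23) and Rps12 (4016 FPKM, -0.07). H19 was the only long noncoding RNA among them.

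The KO pools gave nearly the same liver-high list. Of 15430 genes counted there, 876 were liver-high (5.68%), and 804 were shared, which is 95.4% of the WT list and 91.8% of the KO list. Their ratios were somewhat larger, with a median of 3.71 over the 843 genes against 3.59 in WT. For the 73 secreted hepatocyte genes the median difference was 0.40 on the log2 scale, with 63 of 73 larger in KO, and for 67 red cell genes it was 0.13. The sign was the same for 842 of 843. Liver-low genes were less stable. In the KO pools 774 of 11937 were called (6.48%), and 735 were shared, 68.0% of the WT list and 95% of the KO list. Of the 346 that were lost, 310 still had a ratio at or below -1 (log2). Over all 1081, which were chosen on the WT values, the ratio to the lowest other organ was higher in the KO pools for 984. In liver alone, the median log2 of KO over WT was 0.25 for these genes. It was -0.01 for counted genes at 1 FPKM or more in WT liver. The part of the choice on WT values in these moves was not tested.

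**Figure D5:**
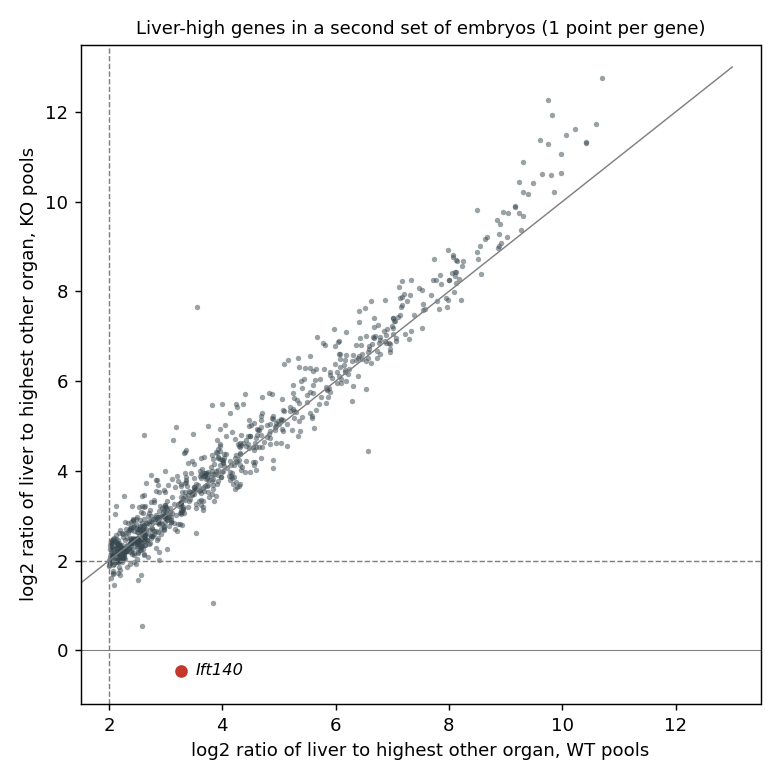
Log2 ratio of liver over the highest other organ in WT pools (horizontal axis) and in KO pools (vertical axis) for the 843 liver-high genes, with a grey line of equality and dashed lines at 4-fold. Genes of large ratio lie above the line, and Ift140 (red) is the 1 gene below 0 in the KO pools, with 3.27 in WT and -0.46 in KO.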

How the data were processed

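Libraries of polyA RNA from whole E14.5 organs, lysed in TRIzol, were made with version 2 of the TruSeq RNA preparation kit (labels' protocols). CASAVA 1.8.2 and TopHat2 are the tools, and mm10 the build, listed by the submitters' processing notes. Which program made the gene values is not given. The authors deposited 1 FPKM value per gene and genotype for each organ, pooled over the libraries of that group, per the file headers. Depth is not stated, so no counting interval could be given. The reporter assay of the series is not used here.

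The 4 tables were joined on gene ID (26754 genes) with Python 3.11.15 and pandas 2.3.3. WT liver was divided by the highest, and by the lowest, of WT heart, hindlimb and lung after 0.1 FPKM was added. Genes at 1 FPKM or more in any WT organ were counted for liver-high calls, and genes at 1 FPKM or more in all 3 other organs for liver-low calls. The code of the rule was run on simulated data with genes set 16-fold higher or lower in liver. These lay far past the 4-fold limit and above the 1 FPKM floor, so their recovery was fixed in advance. The run therefore checks the code and says nothing on the reliability of the calls. The members and the 35 gene lists (663 genes, 660 found in the tables, 6 under another symbol) were chosen with earlier results of these data known.

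Genes were named by rule: the 20 largest ratios at 10 FPKM or more in liver, the 20 highest liver values, the 10 lowest liver-low ratios with 10 FPKM or more elsewhere, all of the albumin family and globins, the 4 markers, the 3 highest and 2 lowest ratios of each other list, and 2 genes on each side of a threshold. All other named genes were chosen by role after their values were seen. Where 1 symbol had several gene IDs, the ID of highest summed value was used. Promoter windows came from RefSeq (GRCm38.p6), and 10145 counted genes had one within 1000 bases of their start in the files. Alternatives were other pseudocounts, floors and folds, the median of the other organs, centred tables, a sum without globins, and the KO pools; leaving out 1 organ was added after the data were seen. Some members that the naming rule picks are not reported here.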

Additional observations from a re-analysis of the deposited data

Results flagged for a closer look

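Ift140, a gene of the transport machinery of cilia, was liver-high in the WT pools and not above the other organs in the KO pools. The other 842 liver-high genes had a ratio above 0 in both. Ift140 (chr17:25016091-25099495, mm10) was at 5.95 FPKM in heart, 7.39 in hindlimb, 9.44 in lung and 91.8 in liver of WT embryos, a log2 ratio of 3.27. In the KO pools it was at 5.51, 7.77, 8.31 and 6.01 FPKM, a ratio of -0.460. The KO liver value thus lay within the range of the other 3 organs. The difference between the pools was not tested, since each value is 1 pool. Meiob (chr17:24804382-24839787) had 1.64 FPKM in WT liver and 0.429 in KO liver, and Unkl (chr17:25188397-25234443) had 23.7 and 14.2. Both lie on the same stretch of chromosome 17 and were also liver-high in WT and not in KO. So were Unc5cl, H2-Q7 and Gpr110, farther along this chromosome, with KO ratios of 0.54, 1.92 and 2.85 (Gpr110 at 0.803 FPKM, under the floor). In all, 39 liver-high genes were lost in the KO pools, on chromosome 17 and elsewhere. Of 758 counted genes on chromosome 17, 52 were liver-high in WT (6.86%), against 5.46% of all genes counted and 7.6% on chromosome 6. The targeted gene Trp53cor1 lies on chromosome 17 too (chr17:29057474-29078961), and the part of this position in the differences was not tested. Genotype and embryo cannot be told apart here. The KO livers came from 3 litters, all of which also gave WT livers, and the WT livers from 4. Pooled values do not separate litters.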

How the results depend on the processing

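The count of liver-high genes stayed within 1.5 times 843 with other pseudocounts, without a filter, with the median of the other organs, with centred tables, with a sum without globins, in the KO pools and with 1 organ left out (950 without heart, 953 without hindlimb, 965 without lung). It was 508 with liver at 10 FPKM or more, 1451 at 2-fold and 349 at 16-fold. The liver-low count of 1081 was 444 with a pseudocount of 1, 394 with the other organs at 10 FPKM or more, 2625 at 2-fold, 71 at 16-fold and 1744 without the heart pool. It was 1265 without hindlimb and 1413 without lung. The stricter and looser floors and folds change what is counted by construction. The median of liver over hindlimb was -0.25 over genes at 1 FPKM or more in all 4 WT organs and 0.34 over the housekeeping list. The cause was not tested. The embryonic share of beta globin was 30.5% in WT hindlimb and 49.8% in KO hindlimb, and 7.61% and 4.1% in liver. With the median of the other organs the lung epithelium list went from -5.47 to 0.039, since lung then no longer sets the ratio. The ratio of Sln to the lowest organ, -5.56 in WT, was 1.02 in the KO pools. Moves were counted as a change of more than 1.5 times in the ratio itself, not in its log2 value. By this count, centring and the sum without globins moved none of 35 list medians and none of 56 gene ratios. Some log2 medians near 0 still changed sign, as listed below. Other settings moved more: list medians moved in 19 with the median of the other organs (and 1 reversed), 15 with a pseudocount of 1, 8 with 0.01 and 7 in the KO pools. Gene ratios moved in 24 of the 46 computed with the median of the other organs, 28 of 56 with a pseudocount of 1, 8 with 0.01 and 32 in the KO pools, where 1 reversed. The list medians that changed sign under a scaling were hepatocyte factors, stem cells (both given above) and housekeeping genes (-0.14, and 0.22 centred).

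No paired analysis was possible because the organ tables hold 1 pooled value per organ and genotype, and single libraries could not be left out for the same reason. Depth sets no stated limit, since read numbers are not given, and ratios of genes near 0 in the other organs depend on the added 0.1 FPKM.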
